A study of Drosophila melanogaster with 39 samples.

Results

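The 5 genes described here, Hml, srp, ush, crq and Pvr, are genes by which Drosophila blood cells, the hemocytes, are recognised. They were taken by name out of 18358 annotated genes, and every peak that overlapped the annotated span of 1 of them, or the 1000 bases (1 kb) to either side, was counted as theirs. Of the 136434 peaks in 30 deposited lists, 275 did so: 139 at ush, 45 at srp, 39 at Hml, 36 at Pvr and 16 at crq. All samples were Kc167 cells, an embryo-derived line that GEO's labels call hemocyte, grown in CCM3 medium and harvested after 4 days with double-stranded RNA (dsRNA). The dsRNA was directed against eff (Eff knockdown), against cul4 (Cul4 knockdown) or against mcherry, a fluorescent protein that is not a fly gene (control), so the control cells had been exposed to dsRNA as well. Chromatin immunoprecipitation with sequencing (ChIP-seq) was performed with a rabbit antibody to Cul4, with antibodies to CP190 and Su(Hw), and, in control cells only, with a mouse antibody to Cul4, with 3 libraries in each of the 10 groups. The study asked whether Eff and Cul4 help to bring insulator proteins to chromatin.

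Hemocytes are the macrophage-like cells of the fly, which engulf dying cells and microbes, seal wounds and lay down basement membrane. Serpent (srp) is the GATA factor that sets up the blood lineage, and U-shaped (ush) is the Friend-of-GATA zinc finger protein that binds Serpent and limits the formation of specialised blood cells. Croquemort (crq) is a CD36-type scavenger receptor for apoptotic cells, Pvr is the receptor tyrosine kinase for PDGF/VEGF-type ligands that guides hemocyte migration and survival, and Hemolectin (Hml) is a large secreted clotting protein whose upstream region is the usual driver for marking hemocytes in larvae. Effete (Eff) is a ubiquitin-conjugating enzyme and Cul4 the scaffold of a Cullin-RING ubiquitin ligase. CP190 and Su(Hw) belong to the gypsy insulator complex, in which Su(Hw) binds DNA through zinc fingers. Peak lists record where a protein was cross-linked to DNA, not transcription, so neither the hemocyte label of the line nor the depletion of Eff was tested by them.

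The lists for rabbit Cul4 held 4447, 5355 and 4469 peaks in control cells, 4488, 571 and 424 in Eff knockdown cells and 3037, 2378 and 3431 in Cul4 knockdown cells. Those for CP190 held 6496 to 9149 peaks, those for Su(Hw) 3123 to 4153, and those for mouse Cul4 809 to 933. Read totals were not given in the lists, but each peak's fold enrichment and p-value together imply the local background pile-up that it was tested against. The lowest such background of a library, which rises with its sequencing depth, ranged over the 30 libraries from 4.49 in Eff knockdown replicate 3 of Cul4 to 33.2 in Eff knockdown replicate 1 of Cul4, so the 3 Cul4 libraries of that group differed among themselves both in depth and in the length of their lists. Values without single libraries of this group are given beside the main Cul4 results. A peak's fold enrichment is the ratio of its pile-up to that background, and its percentile is the share of the peaks in its library with an equal or lower fold. For CP190 after Cul4 knockdown, lowest backgrounds were 22.8, 12.1 and 6.21 and median folds 7.50, 9.30 and 11.5 in replicates 1 to 3. For Su(Hw) they were 10.1, 22.1 and 27.6 with 10.5, 8.40 and 7.19 after Eff knockdown. After Cul4 knockdown those of Su(Hw) were 12.3, 9.35 and 19.9 with 9.25, 10.1 and 6.94. In each group the library of lowest background had the highest median fold, so raw folds of different libraries are not on a common scale. A site is a merged region of overlapping peaks of 1 protein, called reproducible where all 3 libraries of a group had a peak in it. Less protein on each chromosome and protein in fewer cells cannot be told apart in such data.

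All 5 genes had a reproducible rabbit Cul4 site in control cells, whereas 30.1% of all genes had one. The members were chosen with this known, and the count is a description. After Eff knockdown 2 of the 5, Hml and ush, had a reproducible Cul4 site (1.71% of all genes, and 2 to 3 members with any 1 replicate left out), and after Cul4 knockdown all 5 had one (18.6% of all genes). With the mouse Cul4 antibody 4 of the 5, all except crq, had a reproducible site in control cells, against 6.06% of all genes. CP190 was called at all 5 genes in control, Eff knockdown and Cul4 knockdown cells, against 48.9%, 49.9% and 43.3% of all genes. Su(Hw) was called at 4 of the 5 in control cells (13.8% of all genes), at all but crq, and at Hml, srp and ush after either knockdown (13.4% after Eff and 11.9% after Cul4 knockdown). A longer span can hold more peaks, and these shares of all genes were not matched for gene length. Counted from the longest gene, the members ranked 213th (ush), 1118th (Pvr), 1184th (srp), 1508th (Hml) and 3755th (crq) of 18358.

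Merged over the libraries of all 3 treatments, the 5 genes had 15 Cul4 sites that were reproducible in control cells, 8 of them at ush, 3 at srp, 2 at Pvr and 1 each at Hml and crq. Of these 15, 7 had their summit within 1 kb of an annotated transcription start of the same gene, and 11 lay inside the gene span. Control sites of CP190 overlapped 7 of the 15, those of mouse Cul4 overlapped 4, and those of Su(Hw) overlapped 2. The 5 genes had 9 reproducible CP190 sites and 5 reproducible Su(Hw) sites in control cells, and 4 of the 5 Su(Hw) sites lay on a CP190 site.

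**Figure D1:**
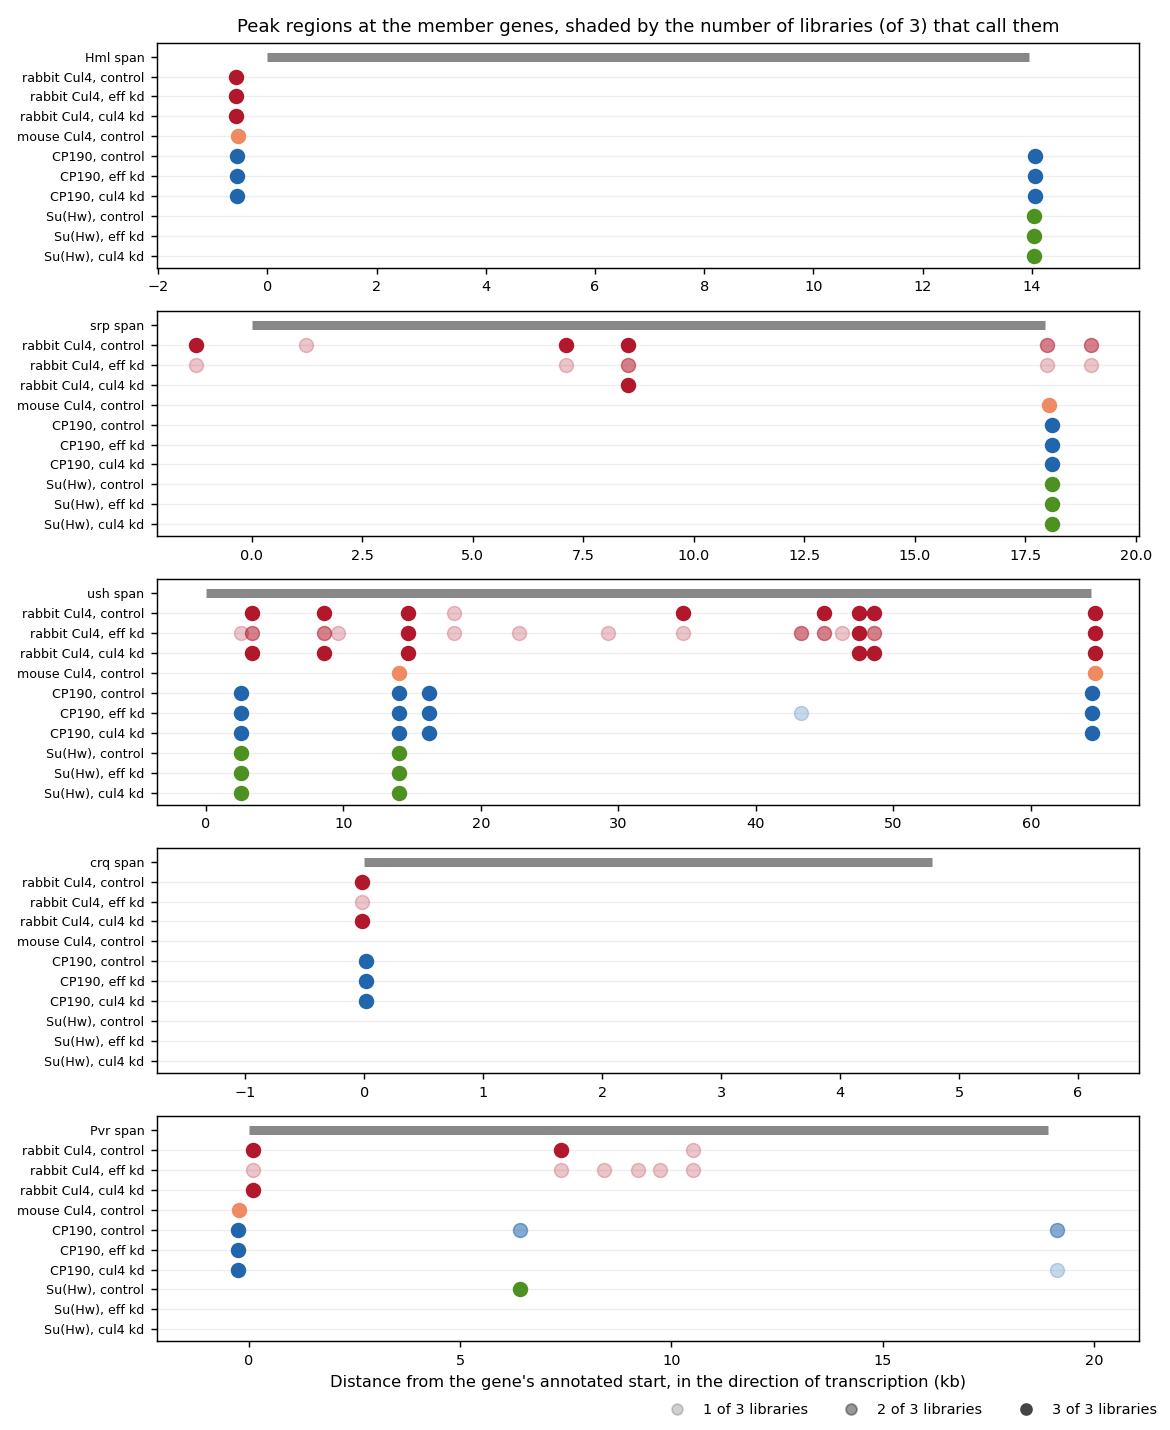
Position of every peak region at the 5 genes, drawn along each gene from its annotated start (horizontal axis, kb, in the direction of transcription), with 1 row for each protein and treatment. Darker points were called in more of the 3 libraries. The ush span carries the most Cul4 points, and several of its Cul4 points inside the gene are missing from the Cul4 knockdown row while the CP190 and Su(Hw) rows look alike across treatments.

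Hml (FBgn0029167, chr3L:13846054-13860001, plus strand, dm6) carried the strongest Cul4 site of the set. Its single Cul4 summit lay upstream, at -567 bases from the start, outside any exon and in a region that also reached the neighbouring tetraspanin gene Tsp68C. The CP190 summit was 9 bases and the mouse Cul4 summit 29 bases away. The 201 bases around the Cul4 summit are printed because they hold this shared peak; capitals mark CGATA, the letters recognised by the insulator protein BEAF-32.
Hml upstream, chr3L:13845387-13845587, plus strand: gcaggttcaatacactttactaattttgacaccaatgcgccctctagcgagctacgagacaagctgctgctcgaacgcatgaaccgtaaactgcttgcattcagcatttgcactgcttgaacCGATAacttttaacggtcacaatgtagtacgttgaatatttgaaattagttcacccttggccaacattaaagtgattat
CGATA, searched on both strands, occurred in 33.9% of all 201-base windows at reproducible Cul4 sites and in 34.7% of those at annotated transcription starts, so the match does not set this window apart.

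At that site the Cul4 fold enrichment was 23.5, 16.8 and 25.7 in control replicates 1 to 3, which ranked 25th of 3692 Cul4 regions called in all 3 control libraries by mean. It was 6.03, 5.65 and 13.0 after Eff knockdown, with 10.1, 17.2 and 14.2 after that of Cul4. All 3 Eff knockdown values lay below all control values, and after Cul4 knockdown 2 of 3 did. The peak stayed high in its own lists: its percentile was 98.99 to 99.6 in control, 98.0, 84.4 and 84.7 with Eff knocked down and 95.9, 98.1 and 99.3 with Cul4 knocked down. Fitted with limma on log2 fold enrichment with each library's median subtracted, the difference was -0.71 ± 0.17 (SE, adjusted p = 0.0053) after Eff knockdown and -0.67 ± 0.18 (adjusted p = 0.011) after Cul4 knockdown. Of the 193 regions tested after Eff knockdown 29% were higher and 23.8% lower, and of 2033 after Cul4 knockdown 9.2% and 14.9%. These shares are relative to library medians and leave out every region without a peak in all 6 libraries, so lost regions do not count as lower. With its own test on reads, the paper reports most Cul4 peaks as reduced after Cul4 depletion. The Eff knockdown call held when any 1 library was left out and without the medians subtracted, where the site differed by -1.51 and the median region by -0.69. The Cul4 knockdown call was lost when control replicate 1, control replicate 3 or Cul4 knockdown replicate 1 was left out (-0.59, -0.58 and -0.51) and under quantile normalization (-0.23, adjusted p = 0.30). Mouse Cul4 fold enrichment at the site was 5.09, 4.99 and 5.03.

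CP190 at the Hml upstream site had fold enrichments of 17.5, 15.8 and 16.4 in control, 16.7, 15.7 and 21.7 in Eff knockdown and 10.6, 20.7 and 37.9 in Cul4 knockdown cells. Neither knockdown passed the test there (limma difference -0.05 ± 0.14 and -0.06 ± 0.31). Downstream of Hml, CP190 and Su(Hw) shared a site with summits 14060 and 14044 bases from the Hml start, in the 3′ UTR of the convergent gene CG8745. CP190 there was 10.3, 9.36 and 10.0 in control and 13.2, 14.0 and 14.3 after Eff knockdown, without overlap, and rose by 0.32 ± 0.10 on the log2 scale (limma adjusted p = 0.039). Across all CP190 regions 12.9% rose and 15.8% fell in that comparison, and the call was lost when any 1 library other than control replicate 2 was left out (differences of 0.27 to 0.37). Su(Hw) at the same place was 8.49, 8.76 and 7.84 in control, 12.4, 9.79 and 9.14 with Eff knocked down and 11.5, 10.7 and 6.0 with Cul4 knocked down, and passed the test in neither. The 25 bases are printed as the only Su(Hw) site of the 5 with the core letters TGCATA, which, extended to TGCATAC, are in capitals.
Hml downstream, chr3L:13860091-13860115, plus strand: tcaaacattTGCATACtcatcgggg
On either strand TGCATA occurred in 45.6% of all 201-base windows at reproducible Su(Hw) sites and in 8.29% of those at transcription starts.

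srp (FBgn0003507, chr3R:15986152-16004085, plus strand) had 3 Cul4 sites in control cells, with summits at -1249, +7099 and +8511 bases from its start. The upstream site was counted because its region reached into the 1 kb flank. That region also overlapped a reproducible control CP190 site that did not itself reach the flank. The inner pair lay 817 and 523 bases from annotated srp starts, the +8511 summit in an exon and the +7099 summit in a 5′ UTR exon that it shares with lncRNA:CR44133, a noncoding gene of the same strand. At +8511 the Cul4 fold enrichment was 3.86, 4.37 and 4.29 in control and 4.49, 5.95 and 7.1 after Cul4 knockdown, with every knockdown value above every control value. It was 2.54 and 2.73 after Eff knockdown, with no peak in replicate 3. The limma difference after Cul4 knockdown was 0.47 ± 0.14 (adjusted p = 0.023), a direction shared by 9.2% of all Cul4 regions tested, and the call was lost without control replicate 1 (0.45), control replicate 3 (0.47), or Cul4 knockdown replicate 2 (0.45) or 3 (0.37), and with the mean fold of a region's peaks in place of the highest (0.40, adjusted p = 0.081). At +7099 the fold was 3.00, 3.84 and 3.47 in control, and upstream it was 3.01, 2.84 and 3.10. Both of these sites had no peak in any Cul4 knockdown library and a peak in 1 Eff knockdown library, the same replicate 1, with 2.81 and 2.93.

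Just past the srp 3′ end, between srp and the convergent lncRNA:CR42839, whose last exon the region reached, lay a site of CP190 and Su(Hw) with summits 18098 and 18095 bases from the srp start. CP190 fold enrichment was 14.7, 15.1 and 13.9 in control, 15.1, 12.2 and 20.3 after Eff knockdown, and after that of Cul4 it was 15.9, 23.6 and 21.8. Su(Hw) was 14.9, 14.0 and 14.2 in control, at percentiles of 91.0 to 94.1, and 22.2, 9.18 and 14.9 after Eff knockdown. After Cul4 knockdown Su(Hw) was 21.5, 19.1 and 7.15, so both knockdown groups spread on either side of the control values. None of these differences passed the test. Mouse Cul4 was called there in 3 of 3 control libraries, with 4.15, 3.42 and 3.75, and rabbit Cul4 in 2 of 3. The 201 bases around the Su(Hw) summit are shown because the strongest Su(Hw) peak of the set has no TGCATA in this window.
srp downstream, chr3R:16004147-16004347, plus strand: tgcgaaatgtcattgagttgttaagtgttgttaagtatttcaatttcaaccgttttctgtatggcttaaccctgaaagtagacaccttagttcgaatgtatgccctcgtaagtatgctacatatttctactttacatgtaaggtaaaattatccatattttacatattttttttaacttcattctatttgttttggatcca

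ush (FBgn0003963, chr2L:476220-540560, plus strand) was the largest of the genes, with 64341 bases the 213th longest of all, and carried the most Cul4. Merging the control libraries alone gave 10 reproducible Cul4 sites, the third most of any gene (0.0163% of genes had at least as many). The same count was 3 after Eff knockdown, where no gene had more, and 6 after Cul4 knockdown, where ush ranked 6th. For CP190 it was 4 in each treatment and for Su(Hw) 2 in each. Merged over the libraries of all treatments, the 8 Cul4 sites of control cells lay at 3395, 8579, 14675, 34700, 44959, 47515, 48607 and 64686 bases from the ush start.

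Some of these summits lay at other genes as well. The +3395 summit lay 73 bases from the start of cbt, a zinc finger gene nested in the ush span on the other strand, and the +14675 summit 60 bases from a start shared with lncRNA:CR46258. The last summit, +64686, lay past the ush end in the 3′ UTR of lwr, which encodes the SUMO-conjugating enzyme. The +47515 summit was 1 base from an annotated ush start, in a 5′ UTR. The sites at +8579, +34700 and +44959 were intronic and overlapped no CP190 or Su(Hw) site.

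The +64686 site behaved differently in the 2 knockdowns. Its Cul4 fold enrichment was 10.1, 7.16 and 11.3 in control, 4.32, 5.61 and 5.29 after Cul4 knockdown, and 5.17, 7.19 and 20.4 after Eff knockdown. The Cul4 knockdown values all lay below control, while the Eff knockdown values spanned them. After Cul4 knockdown the limma difference was -0.88 ± 0.16 (adjusted p = 0.00091). Of the Cul4 regions called in all 6 libraries 14.9% fell relative to the medians in that comparison, a share that leaves out lost regions. After Eff knockdown it was 0.76 ± 0.26 (adjusted p = 0.023) relative to the library medians, but -0.04 without subtracting them, on a scale where the median region differed by -0.69. In the direct comparison of the 2 knockdowns the site was higher after Eff knockdown by 1.44 ± 0.26 (adjusted p = 0.00046), a direction shared by 16.4% of the regions tested, and by 0.85 (adjusted p = 0.043) without the medians subtracted. With the medians subtracted, this difference passed the test with any 1 library left out (1.10 to 1.75). Libraries were not left out in the fit without that subtraction. The strongest single value, 20.4, came from Eff knockdown replicate 3, the library of lowest background, and without it the Eff knockdown difference from control was 0.44 and did not pass, nor did it without control replicate 2 (0.70) or Eff knockdown replicate 2 (0.78). Mouse Cul4 was called 3 bases away at 6.30, 6.08 and 7.39. CP190, 231 bases away, was 7.52, 7.73 and 7.21 in control, 7.81, 9.20 and 8.20 after Eff knockdown, with 6.68, 14.8 and 23.4 after that of Cul4, and passed the test in neither knockdown.

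The +34700 site was strong in control cells and absent from every Cul4 knockdown list. Its fold enrichment was 6.57, 6.81 and 8.14 in control (percentiles 91.1, 92.1 and 93.6), 2.30 in Eff knockdown replicate 1, and no peak was called in the other 2 Eff knockdown libraries or in any of the 3 Cul4 knockdown libraries. It ranked 332nd of the 3692 control regions by mean fold. Among the 332 regions at least as strong, 6, including this one, had no peak in any Cul4 knockdown library, which is 1.81%, against 22.1% of the weaker regions. The +44959 site, also without a peak in the 3 Cul4 knockdown libraries, was weak in control (2.87, 2.38 and 2.81) and was called in Eff knockdown replicates 1 and 2 (2.57 and 2.38). By contrast the intronic +8579 site was kept after Cul4 knockdown, with 2.50, 3.20 and 3.24 in control and 2.23, 2.88 and 3.70 in the knockdown. The windows of these intronic sites are printed to set lost and kept sites side by side. Capitals mark CGATA (written TATCG on the other strand) in the first, TGATAA (or TTATCA), letters bound by GATA factors, and GAGAGAG in the second, and TGATAA in the third.
ush +34700, no peak after Cul4 knockdown, chr2L:510820-511020, plus strand: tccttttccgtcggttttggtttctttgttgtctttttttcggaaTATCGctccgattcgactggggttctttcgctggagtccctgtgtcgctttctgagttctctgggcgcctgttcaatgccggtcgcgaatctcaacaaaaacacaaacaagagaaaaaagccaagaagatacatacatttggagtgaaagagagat
ush +44959, no peak after Cul4 knockdown, chr2L:521079-521279, plus strand: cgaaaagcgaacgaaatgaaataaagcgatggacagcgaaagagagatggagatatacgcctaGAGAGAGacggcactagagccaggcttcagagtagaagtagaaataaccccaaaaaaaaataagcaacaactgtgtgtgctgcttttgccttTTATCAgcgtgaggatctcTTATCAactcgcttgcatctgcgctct
ush +8579, kept after Cul4 knockdown, chr2L:484699-484899, plus strand: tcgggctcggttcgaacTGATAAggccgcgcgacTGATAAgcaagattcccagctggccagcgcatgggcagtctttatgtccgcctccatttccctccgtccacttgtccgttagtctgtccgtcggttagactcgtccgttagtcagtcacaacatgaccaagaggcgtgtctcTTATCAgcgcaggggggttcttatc
On either strand TGATAA occurred in 11.3% of windows at all reproducible Cul4 sites and 13.6% of those at transcription starts, and GAGAGAG in 5.85% of windows at Cul4 sites. Of these windows, TGATAA occurred in those of lost +44959 and kept +8579, CGATA only in that of lost +34700, and GAGAGAG only in that of lost +44959.

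The other ush sites moved less. At +3395 Cul4 was 4.95, 4.62 and 5.81 in control and 4.38, 5.67 and 6.14 after Cul4 knockdown. At +47515, the internal start, it was 3.85, 4.07 and 4.27 in control, 3.13, 3.08 and 4.01 in Eff knockdown and 4.11, 4.66 and 3.94 in Cul4 knockdown cells. At +14675 the values were 3.75, 3.76 and 4.68, then 2.62, 2.71 and 4.41, then 3.06, 3.85 and 3.89 in the same order. After Eff knockdown these last 2 sites were higher relative to the library medians, by 0.53 ± 0.19 (limma adjusted p = 0.029) and 0.44 ± 0.17 (adjusted p = 0.040), and lower without subtracting the medians, by -0.27 and -0.36. Their direction therefore depended on the scaling, and each call was lost without any of control replicates 1 and 3 and Eff knockdown replicates 1 and 2 (0.35 to 0.49 over both sites). After Cul4 knockdown, none of the 5 sites at +3395, +8579, +14675, +47515 and +48607 passed the test (differences of -0.20 to 0.08), but +3395 did with the mean fold of a region's peaks in place of the highest (0.48, adjusted p = 0.026).

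CP190 and Su(Hw) shared sites at +2557 and +2554, in the cbt 5′ UTR, and at +14027 and +14024, in a ush 5′ UTR exon, with summits 3 bases apart in each. At +14027 CP190 was 7.47, 9.66 and 8.21 in control, 8.23, 8.50 and 9.03 after Eff knockdown, and after that of Cul4 it was 6.74, 12.7 and 19.0. Su(Hw) there was 7.48, 8.75 and 8.47 in control, 12.6, 6.63 and 6.31 with Eff knocked down and 9.03, 11.6 and 5.28 with Cul4 knocked down. These groups overlapped and passed no test. At +2557 CP190 was 6.61, 5.22 and 5.93 in control and 7.70, 8.64 and 7.45 in Eff knockdown cells, without overlap. This difference of 0.26 ± 0.10 missed the threshold (limma adjusted p = 0.062) and passed it without the medians subtracted (0.42, adjusted p = 0.043) and under quantile normalization (0.32, adjusted p = 0.020). A CP190 site without Su(Hw), at +16245 in an exon of lncRNA:CR46258, was 7.32, 7.35 and 7.66 in control and 5.92, 6.25 and 8.57 after Cul4 knockdown. It fell by 0.48 ± 0.14 on the log2 scale relative to the library medians (limma adjusted p = 0.047), as did 8.2% of all CP190 regions, but the call was lost without any control replicate or Cul4 knockdown replicate 2 (-0.55, -0.41, -0.48 and -0.41), under quantile normalization (-0.37) and with the mean fold of a region (-0.47), and the difference was -0.13 without the medians subtracted, on a scale where the median CP190 region differed by 0.34.

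crq (FBgn0015924, chr2L:448254-453024, minus strand) had 1 Cul4 site, at -19 bases from its start, and a CP190 site 31 bases from it, both in regions that also reached the divergent neighbour shv. It was the only 1 of the 5 without a reproducible Su(Hw) or mouse Cul4 site. Cul4 fold enrichment was 3.66, 3.77 and 3.68 in control, 2.42 in Eff knockdown replicate 1 with no peak in the other 2, and 2.42, 3.44 and 3.63 after Cul4 knockdown. Every value called after either knockdown lay below control, that of Cul4 knockdown replicate 3 by a narrow margin, and the limma difference after Cul4 knockdown was -0.24 ± 0.14 (adjusted p = 0.24). CP190 was 7.02, 5.35 and 6.68 in control, 9.11, 8.33 and 9.15 after Eff knockdown, with 5.24, 7.09 and 10.5 after that of Cul4. After Eff knockdown CP190 rose by 0.33 ± 0.09 on the log2 scale (limma adjusted p = 0.026), with all 3 values above control. Of all CP190 regions tested 12.9% rose and 15.8% fell in that comparison, and without the medians subtracted the median region rose by 0.13. The call was lost without control replicate 1 or 3 or Eff knockdown replicate 1 or 3 (0.28 to 0.34). The bases at the crq start are printed for the match in capitals, GTGTGACC read on the other strand, the letters recognised by the promoter factor M1BP.
crq start, chr2L:452972-452996, minus strand: aacgcttctGGTCACACtcgcccag
GTGTGACC occurred on either strand in 7.55% of windows at all reproducible Cul4 sites and 4.74% of those at transcription starts, and at 1 of the 15 Cul4 sites of the 5 genes.

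Pvr (FBgn0032006, chr2L:8220980-8239878, minus strand) had Cul4 at its start, at +90 in the 5′ UTR, and in an intron at +7388. At +90 the fold enrichment was 5.05, 5.22 and 5.37 in control, 2.91 in Eff knockdown replicate 1 alone of that group, and 3.49, 3.65 and 3.87 after Cul4 knockdown. The Cul4 knockdown values were all lower and the difference was -0.49 ± 0.13 (limma adjusted p = 0.0094), which passed the test with any 1 library left out. Of the Cul4 regions called in all 6 libraries 14.9% fell in that comparison. At +7388 it was 3.67, 3.59 and 3.91 in control and 3.27 in Eff knockdown replicate 1, with no peak in the other 2 Eff knockdown or the 3 Cul4 knockdown libraries. CP190 lay upstream, at -255 bases from the start, with 14.0, 16.8 and 14.7 in control, 13.7, 14.5 and 13.8 in Eff knockdown and 10.9, 19.1 and 21.9 in Cul4 knockdown cells. Its limma difference passed in neither knockdown (-0.28 ± 0.14, adjusted p = 0.17, and -0.22 ± 0.21, adjusted p = 0.50). Another CP190 region, at +19120, was called in 2 of 3 control libraries, in 1 Cul4 knockdown library and in no Eff knockdown library. Mouse Cul4, at -219 bases, was 3.17, 3.86 and 3.60.

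Pvr also held the only Su(Hw) site of the set that was lost, at +6420 in an intron. Su(Hw) was called there in all 3 control libraries at 4.13, 4.41 and 4.29, which were low for that protein (percentiles 9.85 to 14.3), and in none of the 3 Eff knockdown or 3 Cul4 knockdown libraries. CP190 at the same place was called in 2 of 3 control libraries (4.59 and 5.15) and in no knockdown library. Of all Su(Hw) regions called in the 3 control libraries, Eff knockdown lost 1.45% and Cul4 knockdown 7.96%. By mean control fold the site ranked 3469th of 3718. Of the 249 weaker regions 13.3% and 45.8% were lost, against 0.605% and 5.25% of those at least as strong. The control peaks would still have passed the threshold with every pile-up and background scaled to the shallowest of the 6 libraries in either comparison. Such scaling does not redraw reads, and whether depth accounts for the missing peaks was not tested. The windows of this site, of the intronic Cul4 site and of the shared upstream site are printed because they cover a lost Su(Hw) site, a lost Cul4 site and a kept site of the same gene. Capitals mark TATCG, the other strand of CGATA, in the first and AGATAA, another form bound by GATA factors, in the third, while the second has neither.
Pvr +6420, Su(Hw), lost in both knockdowns, chr2L:8233358-8233558, minus strand: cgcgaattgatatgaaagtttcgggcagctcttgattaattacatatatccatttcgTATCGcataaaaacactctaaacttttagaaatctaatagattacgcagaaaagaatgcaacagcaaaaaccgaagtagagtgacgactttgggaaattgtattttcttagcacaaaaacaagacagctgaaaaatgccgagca
Pvr +7388, Cul4, no peak after Cul4 knockdown, chr2L:8232390-8232590, minus strand: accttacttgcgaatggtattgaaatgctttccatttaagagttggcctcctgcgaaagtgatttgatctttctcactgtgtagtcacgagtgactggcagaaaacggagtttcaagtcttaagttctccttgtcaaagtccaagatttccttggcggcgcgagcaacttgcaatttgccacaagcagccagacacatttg
Pvr upstream, CP190, kept, chr2L:8240033-8240233, minus strand: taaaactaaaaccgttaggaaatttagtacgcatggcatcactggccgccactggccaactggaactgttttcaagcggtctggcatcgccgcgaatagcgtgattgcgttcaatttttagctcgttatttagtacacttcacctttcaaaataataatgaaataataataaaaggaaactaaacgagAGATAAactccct
CGATA occurred in 16.8% of windows at all reproducible Su(Hw) sites, and AGATAA in 10.6% of those at CP190 sites, on either strand.

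**Figure D2:**
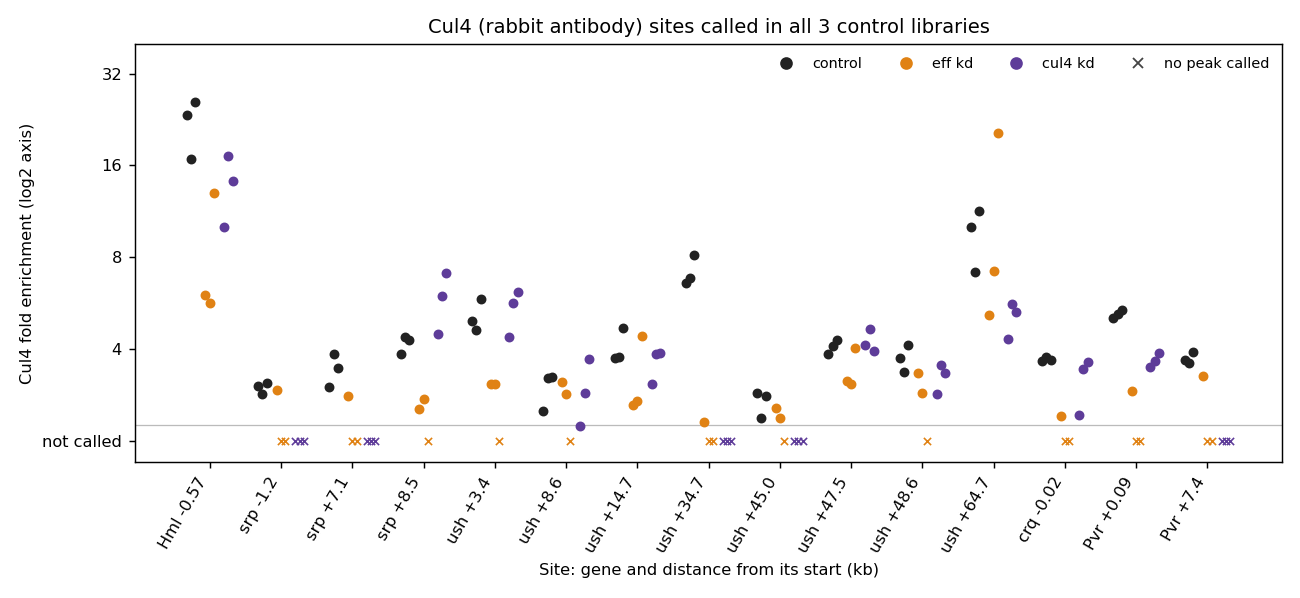
Fold enrichment of rabbit Cul4 (log2 axis) in each of 9 libraries at the 15 sites that were reproducible in control cells, by gene and distance from the gene start (kb). Crosses mark libraries without a peak. Hml upstream stands highest, at 16.8 to 25.7 in control, and 5 sites have crosses in all 3 Cul4 knockdown libraries.

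Counted over the 15 Cul4 sites, 5 were lost after Cul4 knockdown, with no peak in any of its 3 libraries, and the other 10 were kept in all 3. Across all 3692 Cul4 regions of control cells 20.3% were lost and 55.1% kept. The 5 lost were srp -1249 and +7099, ush +34700 and +44959 and Pvr +7388, and each of the 5 genes kept at least 1 site. All 3 Cul4 knockdown libraries called 10 of the 15, whereas they called 70.6%, 57.3% and 75.9% of all control regions. Without replicate 1, 8 of the sites then reproducible in the other 2 control libraries were lost and 10 kept.

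After Eff knockdown none of the 15 sites was lost and 4 were kept in all 3 libraries, which were Hml upstream and ush +14675, +47515 and +64686. Of all control regions 29.2% were lost and 5.23% kept. The 3 libraries called 15, 9 and 4 of the 15, whereas they called 70.7%, 14.2% and 8.64% of all control regions. Sites of 1 gene were counted singly here, and most of the 15 are at ush. In replicates 2 and 3 ush had 8 and 4 Cul4 peaks, while crq and Pvr had 0 in both. The count of 0 lost rested on replicate 1, the deepest library, which was the only 1 of the group with a peak at 6 of the 15. Without replicate 1 of either group, 9 of the sites then reproducible in the other 2 control libraries were lost. With every library scaled to the lowest background of the 6, 8 of the 15 sites stayed reproducible in control cells, and of those 4 were lost and 2 kept. For the sites not called at that depth in control cells, depth and loss of Cul4 cannot be told apart. For the others the scaling does not redraw reads, and the part of depth was not tested.

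CP190 was kept at 9 of 9 sites after both knockdowns, when 96.3% (Eff) and 83.3% (Cul4) of all its control regions were kept and 1.08% and 2% were lost. Su(Hw) was kept at 4 of 5 sites, against 91.8% and 79.7% of all. No site of these genes was gained for any protein, where a gain is a peak in all 3 knockdown and no control library. Of all regions without a control peak, the shares gained after Eff and Cul4 knockdown were 0% and 7.02% for Cul4, 17.7% and 2.35% for CP190, and 7.19% and 6.06% for Su(Hw). For Su(Hw), limma called none of the 4 sites that all libraries held, in either knockdown or between them, and none had an unadjusted p under 0.05. Of all Su(Hw) regions tested 14.6% rose and 14.2% fell after Eff knockdown, 13.9% and 13.5% after that of Cul4, and 0.204% and 0.136% differed between the 2. Between the 2 knockdowns limma called 0 of 9 CP190 sites, of which 2 had an unadjusted p under 0.05, and called 0.166% of all CP190 regions higher and 0.0995% lower after Eff knockdown.

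**Figure D3:**
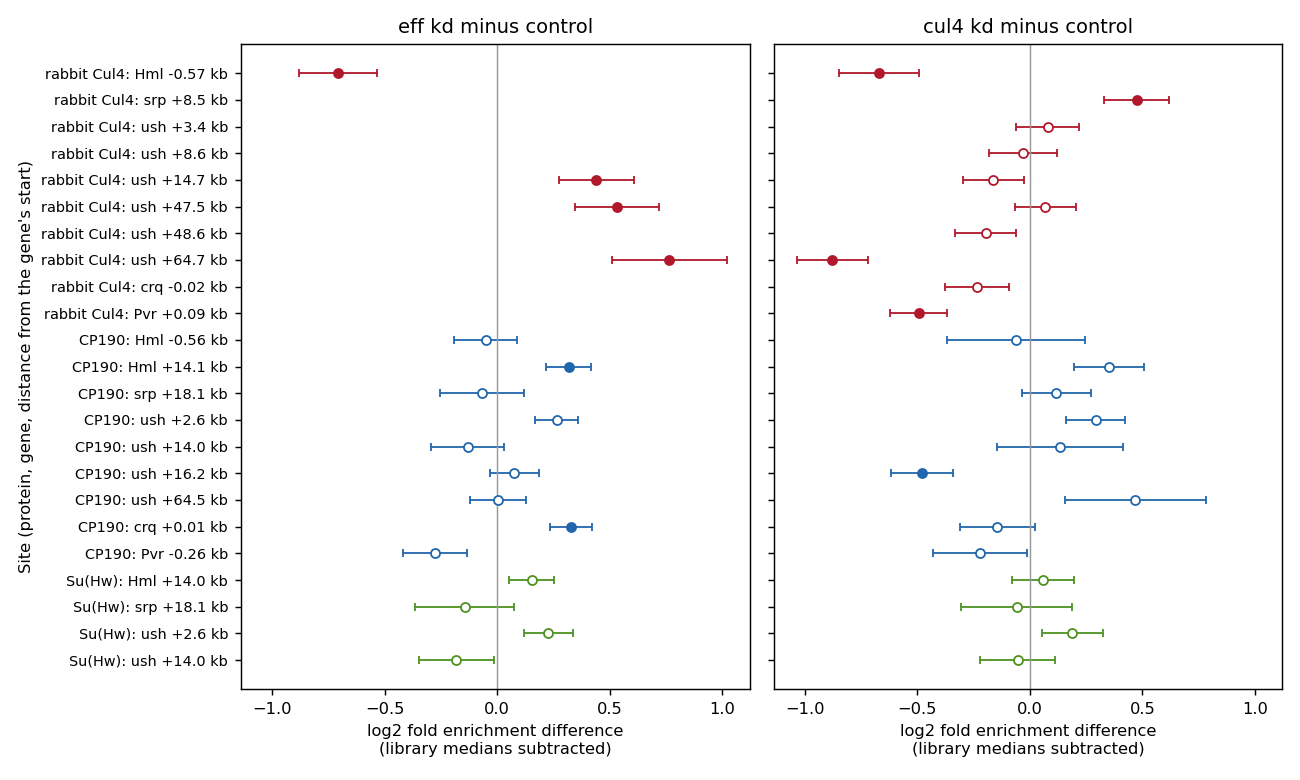
Difference of log2 fold enrichment from control (horizontal axis, library medians subtracted) at every site of the 5 genes called in all 6 libraries of a comparison, with SE bars from limma and filled points past adjusted p of 0.05. Left is Eff knockdown and right Cul4 knockdown. The lowest Cul4 points on the right are ush +64686 at -0.88 and Hml upstream at -0.67, and no Su(Hw) point is filled.

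The strongest peak of each gene, expressed as a percentile of its own list with 0 where a library had none, gave a measure that does not depend on the scale of fold enrichment but does depend on which other peaks, and how many, the list holds. At Pvr +7388, for example, the Cul4 fold was lower in Eff knockdown replicate 1 than in any control library while its percentile there was 80.9, against 43.7 to 47.9 in control. The percentiles are therefore places within lists of unequal length (424 to 5355 peaks for rabbit Cul4) and no measure of a change in binding. For Cul4 it was 99.3 ± 0.30 at Hml in control (SD, n = 3), 95.0 ± 1.54 at ush, 81.0 ± 1.97 at Pvr, 62.0 ± 11.4 at srp and 45.3 ± 9.32 at crq. Each gene's control libraries lay apart from the next gene's in this order except for srp and crq, whose ranges of 53.4 to 74.9 and 35.4 to 53.9 overlapped. After Cul4 knockdown the percentile was lower in every library than in any control library at ush (77.3 ± 8.26), Pvr (35.6 ± 9.85) and crq (17.4 ± 15.96), which 34% of all genes with a peak also showed. The ush values came from different sites. In control and Eff knockdown cells the strongest peak was +64686, in the lwr 3′ UTR, and after Cul4 knockdown +3395, near the cbt start. At +64686 itself the percentile after Cul4 knockdown was 73.5 ± 5.15. At srp it was 80.9 ± 9.75, higher on average but overlapping control. The overlapping control value, 74.9, came from +18980, a site called in 2 of 3 control libraries. After Eff knockdown it was lower in every library at Hml (89.0 ± 7.74) and crq (7.94 ± 13.8), as at 42.2% of all genes, and was 93.9 ± 3.97 at ush. With any 1 replicate left out these Eff knockdown differences from control were -14.7 to -8.04 at Hml, -44.6 to -29.1 at crq and -2.04 to 0.35 at ush.

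For CP190 the percentile at Pvr was 92.2 ± 2.29 in control, 82.8 ± 2.51 after Eff and 78.4 ± 4.99 after Cul4 knockdown, with no overlap in either comparison (19.3% and 24.4% of genes were lower in this way). At crq it was 44.0 ± 6.02 in control and 56.8 ± 3.24 after Eff knockdown, higher without overlap, as at 17.6% of genes. For Su(Hw), Pvr was lower in both knockdowns, having no peak left (27.6% and 45.7% of genes), and Hml was higher after Eff knockdown, at 65.0 ± 3.93 against 58.2 ± 1.14 (14.1% of genes). With 3 libraries against 3, the exact two-sided permutation test cannot give less than 0.1, and no percentile difference passed after Benjamini-Hochberg adjustment over all genes with a peak.

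**Figure D4:**
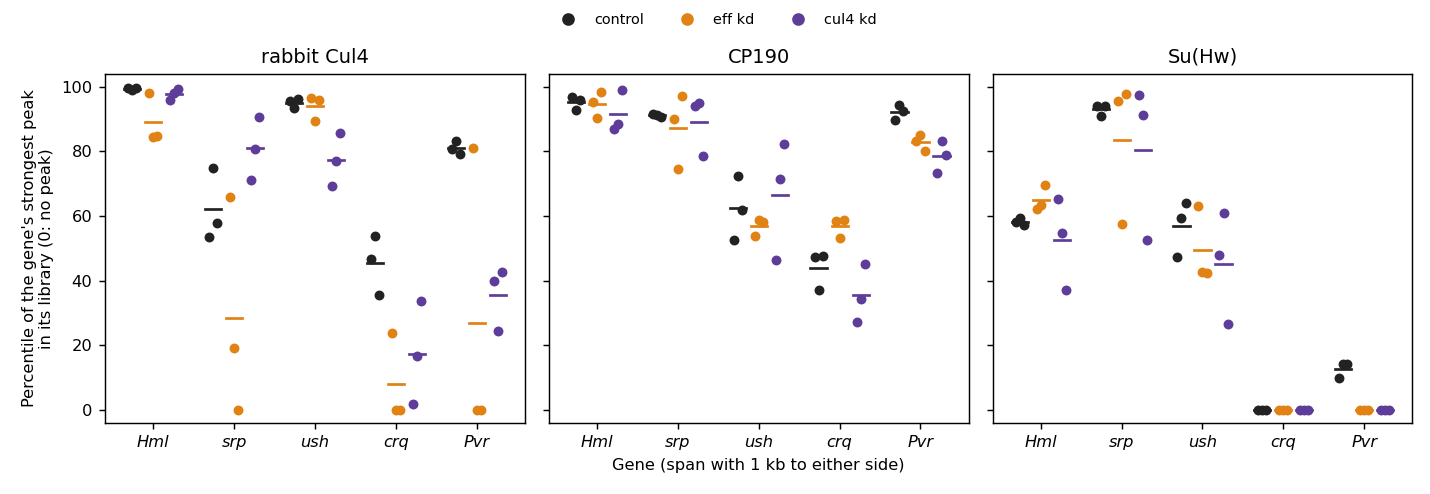
Percentile of the strongest peak of each gene within its own library (vertical axis, 0 where none was called), for rabbit Cul4, CP190 and Su(Hw). Points are single libraries and bars the mean of 3. Cul4 at Hml and ush averages 99.3 and 95.0 in the control lists, and crq and Pvr average 17.4 and 35.6 in those of Cul4 knockdown, which are shorter (2378 to 3431 against 4447 to 5355 peaks). The ush Cul4 points of control are those of +64686, in the lwr 3′ UTR, and those of Cul4 knockdown are of +3395.

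The pattern over all 30 libraries was compared with that of every other gene with a peak by the mean absolute difference of this percentile. Nearest to Hml were SNF4Agamma (5.46 percentile points), CG8861 and CG12951 (8.33 each). Nearest to srp were Mhcl (8.58), CG13560 (9.84) and Mob2 (10.02), and nearest to ush were Spn (11.5), mam (12.3) and Rip11 (12.9). Nearest to crq were Exd2 (3.94), Mvl (4.18) and Rif1 (4.31), and nearest to Pvr were Keap1 (6.02), ArfGAP1 (6.14) and kuk (6.27). None of the 5 genes was among the 3 nearest of another, and no other gene of the hemocyte list was.

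Among 27 hemocyte genes listed by role, the 5 members included, Cul4 was reproducibly called in control cells at 15, after Eff knockdown at 4 and after Cul4 knockdown at 13, beside 30.1%, 1.71% and 18.6% of all genes. Besides the members these were, in control cells, the transcription factor genes gcm2, kn and zfh1, the receptor genes drpr, PGRP-LC and dome, the ligand genes Pvf1 and Pvf2, the phenoloxidase gene PPO3 and the signal transducer Stat92E. Of the ligand genes of Pvr, Pvf2 kept its Cul4 site after Cul4 knockdown, as Pvr did, and Pvf1 did not. After Eff knockdown, with lists of 571 and 424 peaks in replicates 2 and 3, the 4 were Hml, ush, kn and zfh1, while Pvr and crq had peaks in replicate 1 alone. CP190 was called at 17 of the 27 in control and 18 after each knockdown, hop, lz, Pxn and Pvf3 among them, and Su(Hw) at 7 and then 6, Pvr being the gene that left (48.9% and 13.8% of all genes in control cells). Lists of other cell types gave Cul4 at 2 of 8 neuronal, 1 of 7 muscle, 1 of 6 fat body and 3 of 6 germline genes in control cells, and Su(Hw) at 6 of the 8 neuronal genes, beside the same shares of all genes, 30.1% for Cul4 and 13.8% for Su(Hw). In the same order of lists CP190 was called at 6, 1, 2 and 5 genes, beside 48.9% of all genes. Mouse Cul4 was called at 1, 1, 0 and 3 of them and at 5 of the 27 hemocyte genes, beside 6.06% of all genes. The shares of all genes were not matched to any of these lists for gene length.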

How the data were processed

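The authors trimmed single-end reads of 50 bases with cutadapt 3.4, aligned them to the dm6 genome with Bowtie2 2.4.2, kept mapping quality of at least 20 (SAMtools 1.12), removed duplicates with Picard and called peaks against input DNA with MACS2 2.2.7.1 at a q-value cutoff of 1e-09. Per the file headers and the labels each of the 30 immunoprecipitated libraries has its own narrowPeak list. The deposited columns hold a score, the fold enrichment as a ratio over local background, and p and q as −log10 values. The 9 input libraries had no list used here. The authors' later steps on reads, their overlap of replicates and their blacklist were not applied.

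Peaks of 1 protein were merged into regions across the 9 libraries compared (at least 1 shared base) and assigned to genes of the annotation by span with 1000 bases to either side. Fold enrichments, the highest of a region in each library, were tested as log2 values with limma 3.58.1 over all regions called in all 6 libraries of a comparison, with library medians subtracted and p-values adjusted by Benjamini-Hochberg (threshold 0.05). Each fit used its own 6 libraries and shared 1 control group with the other knockdown of the same protein. The background pile-up was solved from fold and p, and the implied pile-ups came out whole (within 0.05) in 28 of the 30 libraries. Percentiles were compared with exact permutation tests (scipy 1.17.1). The limma step was tested on simulated data. Motifs were searched in 201-base windows on both strands of the RefSeq dm6 sequence. Alternatives were a −log10 q of at least 20, no flank, stricter overlap, the mean fold of a region in place of the highest, other scalings, a replicate block and leaving out each library.

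Replicates are labelled as biological replicates, and p-values measure the spread between them. Same-numbered libraries of different treatments did not as a rule deviate together (correlations of -0.57 to 0.54, 8 of 27 over 0.1), so numbers were not taken as pairs. For CP190 the replicate 1 libraries did (0.43, 0.54 and 0.53), as did some of different numbers (control 3 with Cul4 knockdown 1, 0.49). Counts of peaks carry no interval, since the lists do not give read depth. Named genes were all 5 members, other hemocyte genes with a reproducible site, and the 3 nearest genes by percentile. At the members, every rabbit Cul4, CP190 and Su(Hw) site reproducible in control cells was named. Sites called in fewer libraries were named only in part. The members and the gene lists were chosen with earlier results of these data known.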

Additional observations from a re-analysis of the deposited data

Results flagged for a closer look

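The Cul4 site 64686 bases from the ush start, in the 3′ UTR of lwr, differed between the 2 knockdowns. Its log2 fold enrichment was higher after Eff than after Cul4 knockdown by 1.44 ± 0.26 (SE, limma adjusted p = 0.00046), with library medians subtracted. Of the 3 Eff knockdown values 5.17 lay within the range of the Cul4 knockdown values of 4.32 to 5.61, and the other two, 7.19 and 20.4, lay above it. The value of 20.4 came from the library of lowest background, and without that library the difference was 1.10 and still passed the test.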

How the results depend on the processing

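Of 448 recomputed counts 403 stayed within 1.5 times their main value, and 216 of 224 percentile differences moved by less than the spread between replicates. At single sites 566 of 621 differences kept their side of the threshold. Among these, differences that passed the threshold also kept their direction, while some that did not pass changed sign. After Eff knockdown the count of Cul4 sites lost, 0, became 1 with a −log10 q of at least 20, 6 when a difference of 2 libraries counted, 4 when scaled to the lowest background and 0 to 9 with a replicate left out. Those kept, 4, became 2, 2 (scaled) and 4 to 9, and those gained 1 by a difference of 2 libraries and 0 to 1. After Cul4 knockdown 3 Cul4 sites were lost at −log10 q of at least 20 and 5 to 8 with a replicate left out. CP190 sites lost became 2 (Eff) and 1 (Cul4) by a difference of 2 libraries, and 0 to 2 and 0 to 1 with a replicate left out.

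Without a flank 2 genes had mouse Cul4, and the Cul4 percentile at Hml differed by -66.7 after Eff and -99.3 after Cul4 knockdown, because its site lies upstream. With percentiles of −log10 q the Cul4 knockdown differences were 5.79 at srp, -7.03 at ush and -27.8 at Pvr for Cul4, and those of CP190 4.92 at crq and -2.46 at Pvr after Eff and -5.48 at Pvr after Cul4 knockdown.

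Cul4 sites higher after Eff knockdown were 3 of 4 tested in the main fit, beside 29% of all regions tested. They became 0 without centring, 1 under quantile normalization, 1 at −log10 q of at least 20 and 0 to 2 with a library left out. At ush +14675 the difference turned to -0.36 without centring and -0.051 under quantile normalization, and at +47515 and +64686 to -0.27 and -0.035 without centring. Higher Cul4 sites after Cul4 knockdown, 1 of 10 tested beside 9.2% of all regions, were 0 to 1 with a library left out. CP190 sites higher after Eff knockdown, 2 of 9 tested beside 12.9% of all regions, were 0 to 2 with a library left out. Lower ones, 0 of 9 beside 15.8% of all regions, became 1 under quantile normalization. The ush +2557 site became higher without centring and under quantile normalization (0.42 and 0.32). With the mean fold of a region, ush +3395 became higher for Cul4 after Cul4 knockdown (0.48) and srp +8511 lost its call (0.40). After Cul4 knockdown 0 of 9 CP190 sites tested were higher in the main fit, beside 7.13% of all regions. This became 3 without centring and 0 to 2 with a library left out. The 1 lower, beside 8.2% of all regions, became 0 without centring, under quantile normalization and with the mean fold of a region. With a library left out it was 0 to 1. Between knockdowns 0 to 1 CP190 sites were higher and 0 to 2 lower with a library left out, and 0 to 1 Su(Hw) sites rose after Cul4 knockdown. The cause was not tested. A replicate block changed 1 call, at ush +14675 after Eff knockdown (0.44, adjusted p = 0.052), so that 2 Cul4 sites in place of 3 were higher, and no other call.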
